A study of Mus musculus with 6 samples.

Results

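RNA levels of 10 genes of the membrane-scission machinery were examined in B16F10, an established line of mouse melanoma cells. The genes were found by symbol among the 27179 genes of the deposited expression table, and all 10 were present. They comprise 8 CHMP genes (Chmp2a, Chmp2b, Chmp3, Chmp4b, Chmp4c, Chmp5, Chmp6 and Chmp7), which encode subunits of ESCRT-III, and the ATPase genes Vps4a and Vps4b, whose products act on ESCRT-III and are not subunits of it. Wild-type B16F10 cells in medium with serum received 0.01% olive oil (OLO, 3 libraries) or 0.01% ozonated olive oil (OZO, 3 libraries) for 6 h, and total RNA was sequenced. The line is a transplantable tumour line grown without other skin cells, so its levels describe these cultured cells only. The measurement used here was 1 value per gene, the authors' mean over all 6 libraries. Whether a gene differed between OZO and OLO was not analysed here, because the columns of the table that separate the groups hold the authors' own comparison. No SD or test can be given for the mean values.

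ESCRT-III subunits assemble into filaments on the inner side of narrow membrane necks and close them. The same reaction sheds vesicles into endosomes, separates daughter cells, seals the nuclear envelope and removes injured patches of the plasma membrane, and it has been described as a brake on ferroptosis and other lytic forms of cell death. CHMP6 starts a filament, CHMP4 proteins form most of it, CHMP3 and CHMP2 proteins finish it and attract VPS4, and VPS4 takes it apart with ATP.

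Of the 10 genes, 9 were expressed at moderate to high levels and 1, Chmp4c, was close to absent. Levels were first read in CPM (the reads of a gene scaled to a common library size), obtained from the mean log2 value. The 9 genes lay between 25.5 CPM for Chmp6 and 149 CPM for Chmp4b, a 5.85-fold span, whereas Chmp4c averaged 0.14 CPM. Means of log2 values are geometric means, which lie below the plain mean where libraries are unequal. At this depth 1 CPM stood for 19.6 reads per library, and Chmp6 therefore rested on about 500.3 reads in an average library and Chmp4b on about 2928. Counting error alone, taken over 6 equal libraries, came to 1.83% of the level for Chmp6 and 0.755% for Chmp4b. Variation between the cultures is not part of these percentages.

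Longer transcripts yield more reads, so levels of different genes were compared as CPM per kb of exon, with the joined exons of all annotated transcripts as the length. On this scale Chmp2b (73.7 CPM per kb) and Chmp4b (73.5 CPM per kb) stood highest and cannot be ranked against each other. They were followed by Chmp5 with 54.2, Chmp3 with 43.0 and Chmp2a with 34.9 CPM per kb. Vps4a had 28.6 and Vps4b 13.9 CPM per kb. Chmp7 with 11.3 and Chmp6 with 10.5 CPM per kb differed by a factor of 1.08 on this scale. With the principal transcript as the length, Chmp7 had 26.9 and Chmp6 16.4 CPM per kb. Chmp4c, with 0.0139 CPM per kb of exon, came last. The order was nearly the same whichever transcript length was used. Of the 45 pairs of genes, 44 kept their order with the longest transcript as the length and 43 with the principal transcript. Chmp2b and Chmp4b changed places with either of these lengths, with Chmp4b the higher at 92.2 against 75.9 CPM per kb.

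**Figure D1:**
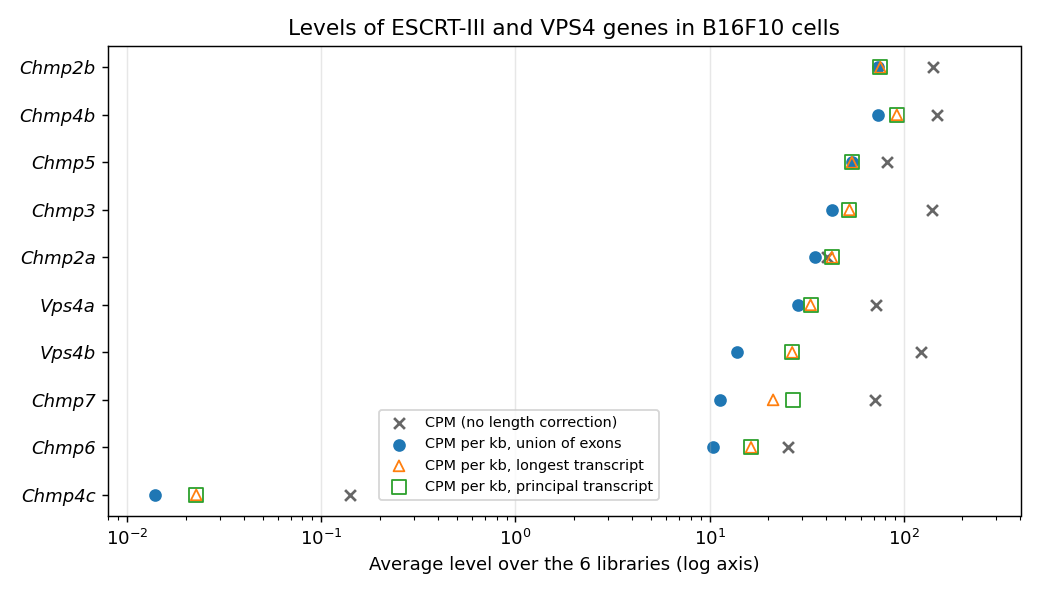
Average level of each of the 10 genes over the 6 libraries on a log axis, as CPM (crosses) and as CPM per kb of exon with 3 choices of length (circles, triangles and squares). The values of 9 genes lie between 10.5 and 149, and those of Chmp4c lie between 0.0139 and 0.14.

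Of the CHMP4 genes in the table, which form the bulk of the filament, Chmp4b was expressed and Chmp4c was close to absent, while Chmp4a was not found in the table. Chmp4b (ENSMUSG00000038467) is a plus-strand gene of chromosome 2 (154651705 to 154694785, GRCm38 coordinates as in mm10) and encodes the CHMP4 protein found in most tissues. Its level of 73.5 CPM per kb exceeded that of 97.5% of the 19227 genes with reads and a known length. Chmp4c (ENSMUSG00000027536), which encodes the CHMP4 form that delays the final separation of dividing cells when chromatin is trapped between them, lies on chromosome 3 from 10366907 to 10428856 on the plus strand. Only 7.79% of genes with reads had a lower level per kb than Chmp4c (0.0139 CPM per kb). Among such low levels this place depends in part on exon length and on the constant that limma-voom adds to every count. It is therefore not a rank by reads. The keratinocyte genes Krt14 and Krt10, with 1 read each in total, stood above Chmp4c at 0.0174 and 0.0145 CPM per kb. In CPM both lay below it, at 0.0306 against 0.14.

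The mean of Chmp4c allowed a further reading. The limma-voom method adds 0.5 to every count before taking logarithms, so the mean of a rarely read gene fixes the product, over the 6 libraries, of (2 × reads + 1). For Chmp4c this product was 28175, which has 5 prime factors. At least 1 of the 6 libraries therefore held 0 reads of Chmp4c, at least 1 held 11 or more, and the libraries together held at least 21 reads. Across 26 sets of read numbers that give this product, the libraries were unequal in every one, but which libraries were high or low cannot be read from a mean. A reading of the same kind gave a whole odd number, within 0.01, for 100% of 8328 rarely read genes. Exons of Chmp4c share 330 bases, or 3.27% of its exon length, with Snx16 on the opposite strand, a gene that averaged 28.5 CPM. The libraries were made with a directional kit, which keeps the strand of each RNA, but whether strand was used in counting is not given in the sources used here. If it was not, reads of Snx16 in that stretch cannot be told apart from those of Chmp4c.

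Reads of paralogs can be confused where their sequences are alike, and the coding sequences of Chmp4b and Chmp4c were aligned for that reason. Of 667 aligned coding bases, 69.4% were identical, and the longest identical run was 17 bases. No stretch of 50 or of 150 bases, the latter being the read length, occurred in transcripts of both genes. The most alike 90 bases of the pair, coding bases 225 to 314 in either gene from the GENCODE M21 transcripts, are shown 5′ to 3′ with the 15 differing bases in capitals.
Chmp4b: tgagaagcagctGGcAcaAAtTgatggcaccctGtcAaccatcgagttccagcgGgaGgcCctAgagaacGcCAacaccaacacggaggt
Chmp4c: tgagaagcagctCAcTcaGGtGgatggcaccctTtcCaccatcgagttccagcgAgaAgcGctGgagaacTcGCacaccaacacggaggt
A read of 150 bases that covers the stretch carries all 15 differing bases.

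The subunit that starts the filament and the one that serves the nuclear envelope had the lowest levels of the 9 expressed genes per kb of exon. With the principal transcript as the length, Chmp7 (26.9 CPM per kb) and Vps4b (26.7) changed places, and in CPM Chmp7 stood above Chmp2a. Chmp6 (ENSMUSG00000025371, chromosome 11, 119913441 to 119919548, plus strand) receives the signal of ESCRT-II and averaged 25.5 CPM, or 10.5 CPM per kb. Chmp7 (ENSMUSG00000034190, chromosome 14, 69717000 to 69732541, minus strand) is recruited to the reforming nuclear envelope and averaged 71.2 CPM, or 11.3 CPM per kb. Both were above more than 76% of genes with reads, at 76.6% for Chmp6 and 77.8% for Chmp7. Per kb of exon, Chmp4b stood 7.02-fold above Chmp6 and 6.51-fold above Chmp7. The second of these ratios was 3.43-fold when the length of the principal transcript was used, because the annotated exons of Chmp7 span 6302 bases and its principal transcript 2649. Lemd2, the envelope protein that binds CHMP7, averaged 8.80 CPM per kb of exon and 16.3 CPM per kb of the principal transcript.

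The subunits that complete the filament were expressed at 34.9 to 73.7 CPM per kb. Chmp3 (ENSMUSG00000053119, chromosome 6, 71543797 to 71582609, plus strand) averaged 139.6 CPM and 43.0 CPM per kb. Its exons share 96 bases, 2.95% of its exon length, with the antisense RNA 1700040L08Rik. The CHMP2 proteins bind VPS4 and are encoded by Chmp2a (ENSMUSG00000033916, chromosome 7, 13032010 to 13034807, minus strand) and Chmp2b (ENSMUSG00000004843, chromosome 16, 65539128 to 65562726, minus strand), the latter known for mutations in frontotemporal dementia. Chmp2a averaged 40.5 CPM and Chmp2b 142 CPM. Chmp2b was the higher of the pair by 3.51-fold in CPM, by 2.11-fold per kb of exon and by 1.78-fold per kb of the longest transcript. The ratio thus depended on length, and its direction did not.

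The coding sequences of Chmp2a (669 bases) and Chmp2b (642 bases) were less alike than those of the CHMP4 pair, with 51.8% of 637 aligned bases identical and no identical run above 11 bases. Their most alike 90 bases are shown, with 31 differing bases in capitals, to show how far the CHMP2 genes differ even there. The stretch covers coding bases 402 to 491 of Chmp2a and 399 to 488 of Chmp2b.
Chmp2a: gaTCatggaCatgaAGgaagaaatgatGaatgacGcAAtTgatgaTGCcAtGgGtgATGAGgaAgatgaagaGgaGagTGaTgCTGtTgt
Chmp2b: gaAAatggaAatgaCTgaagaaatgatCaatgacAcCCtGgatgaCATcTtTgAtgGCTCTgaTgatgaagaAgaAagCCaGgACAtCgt
No stretch of 50 bases was common to transcripts of both genes, although 2.51% of the 50-base stretches of Chmp2a also occurred in the processed pseudogene Gm8185.

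Chmp5 (ENSMUSG00000028419, chromosome 4, 40948407 to 40965303, plus strand) encodes an accessory subunit that binds the VPS4 cofactor LIP5. It averaged 82.3 CPM and 54.2 CPM per kb, the third highest level per kb among the 10 genes. It has 1 annotated transcript, so its level per kb was the same for each choice of length. Vta1, which encodes LIP5, averaged 16.8 CPM per kb.

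Both VPS4 genes were expressed, and their order depended on the scale. Vps4a (ENSMUSG00000031913, chromosome 8, 107031222 to 107045755, plus strand) averaged 72.2 CPM, and Vps4b (ENSMUSG00000009907, chromosome 1, 106764071 to 106796728, minus strand) averaged 123.5 CPM. In CPM, Vps4b was 1.71-fold the higher. Per kb of exon the order turned, with Vps4a 2.06-fold the higher (28.6 against 13.9 CPM per kb), and per kb of the longest transcript the ratio was 1.24. The exons of Vps4b span 8905 bases and its longest transcript 4633, against 2522 and 2178 for Vps4a, and which transcripts the cells used is not given by a level per gene. The paralogs therefore cannot be ranked with these data. Exons of Vps4a share 57 bases, 2.26% of its exon length, with Pdf on the opposite strand, which averaged 15.8 CPM.

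The VPS4 enzymes bind ATP through a Walker A loop, and its 8 codons stand for the same residues in both genes while 6 of their bases differ. The loop was located by translation of the GENCODE M21 coding sequences and is shown in capitals, at coding bases 499 to 522 of Vps4a and 520 to 543 of Vps4b, with the 18 bases on either side.
Vps4a: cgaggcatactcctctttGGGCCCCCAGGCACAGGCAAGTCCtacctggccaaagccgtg
Vps4b: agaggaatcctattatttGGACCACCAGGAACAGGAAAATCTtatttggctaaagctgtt
Over the whole coding sequences 72.5% of 1314 aligned bases were identical, with a longest identical run of 14 bases, and no 50-base stretch occurred in transcripts of both genes. The most alike 90 bases, coding bases 982 to 1071 of Vps4a and 1003 to 1092 of Vps4b, held 14 differing bases, shown in capitals.
Vps4a: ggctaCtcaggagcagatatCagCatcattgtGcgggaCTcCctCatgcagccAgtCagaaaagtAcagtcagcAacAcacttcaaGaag
Vps4b: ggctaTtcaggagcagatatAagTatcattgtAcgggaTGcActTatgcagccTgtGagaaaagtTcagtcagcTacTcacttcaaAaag
Of the 50-base stretches of Vps4b, 1.99% also occurred in the processed pseudogene Gm4939, and at 150 bases 1 of 8693 stretches did. Over the 10 genes, at most 0.15% of 150-base stretches (Chmp4c with Snx16) and at most 5.12% of 50-base stretches (Chmp3, with its antisense RNA and 3 pseudogenes) occurred in transcripts of another gene.

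Among all genes with reads, levels per kb formed a low and a high hump, and 9 of the 10 genes lay in the upper one. Places in the low hump depend in part on the 0.5 read that limma-voom adds and on exon length. Krt5, a gene without reads, would lie at 0.0116 CPM per kb through that 0.5 read alone. The median of the 10 genes was 31.8 CPM per kb, and that of the 19227 genes with reads and a length was 1.47 CPM per kb. With the longest transcript as the length these medians were 37.9 and 1.87 CPM per kb. With the principal transcript they were 37.9 and 3.11, the latter over the genes that have such a transcript. Of the 10, 6 (Chmp2b, Chmp4b, Chmp5, Chmp3, Chmp2a and Vps4a) were above 25.8 CPM per kb, the level that 10% of those genes exceed. All but Chmp4c were also above 7.26 CPM per kb, the median of the 11477 genes of at least 1 CPM. These places describe the genes, which were named together because they work together, and are not a test.

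**Figure D2:**
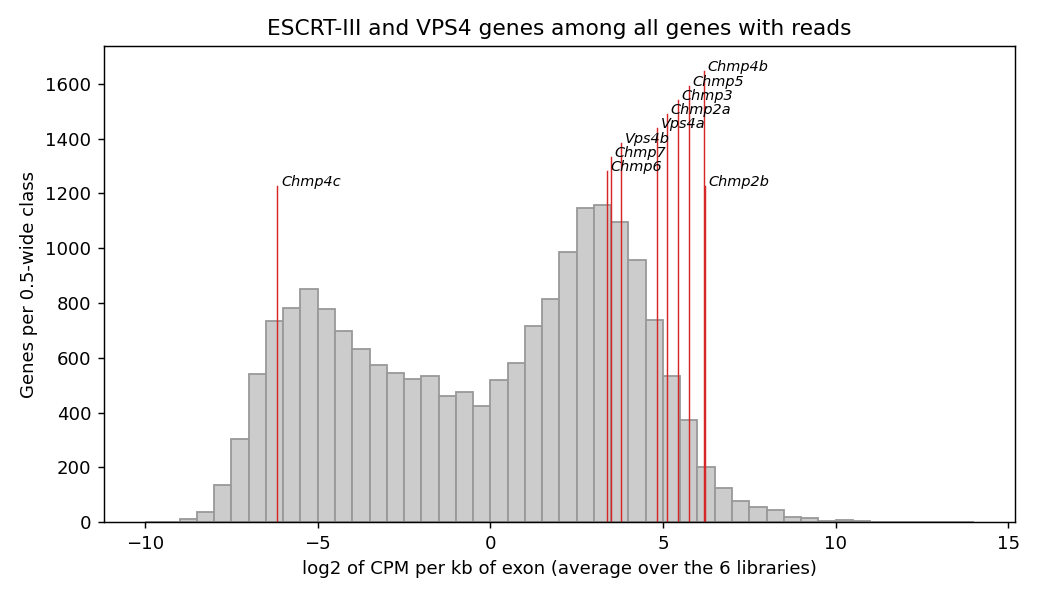
Number of genes with reads (vertical axis) by log2 of the average CPM per kb of exon over the 6 libraries, in classes 0.5 wide, with red lines at the 10 genes. Chmp4c lies in the low hump, above 7.79% of the genes. The other 9 lie in the high hump, from Chmp6 above 76.6% to Chmp2b above 97.6%. Places in the low hump depend in part on the 0.5 read that limma-voom adds and on exon length.

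The other ESCRT genes provide the setting. ESCRT-0, ESCRT-I and ESCRT-II gather cargo and lead to ESCRT-III at endosomes, and adaptors such as ALIX (Pdcd6ip) and ALG-2 (Pdcd6) do so at wounded plasma membrane. Of 31 such genes listed, 30 were in the table and all 30 had reads. Their median was 16.8 CPM per kb, and 25 of the 30 were above the median of genes of at least 1 CPM. The 8 CHMP genes examined had a median of 38.9 CPM per kb, and the 4 other ESCRT-III genes lay between 8.69 and 17.2 CPM per kb. In CPM the median was 76.7 for the 8 genes and 57.6 for the 30.

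In each complex the highest and lowest genes per kb of exon were as follows. In ESCRT-0, Hgs averaged 38.5 and Stam 16.9 CPM per kb, and with the longest transcript as the length 39.5 and 28.3. In ESCRT-I, Tsg101, the core subunit that also recognises viral budding signals, averaged 36.2 CPM per kb, and Vps37d, 1 of 4 alternative VPS37 subunits, averaged 0.424 CPM per kb. Vps37d and Chmp4c were thus the only genes of these 40 under 1 CPM, at 0.655 and 0.14 CPM. In ESCRT-II, Vps25, which contacts CHMP6, averaged 53.9 CPM per kb and Snf8 19.8. With the longest transcript as the length, Vps36 was the lowest (21.1 against 30.0 for Snf8). Vps25 therefore stood above Chmp6, at 10.5 CPM per kb. Among the other ESCRT-III genes, Chmp1a averaged 17.2 and Chmp1b2 8.69 CPM per kb, and Ist1 (17.1) cannot be ranked against Chmp1a. Chmp1b (16.9) lay below Chmp1a on every scale, at 16.9 against 26.2 CPM per kb with the longest transcript. With the principal transcript Ist1 had 51.9 and Chmp1a 26.2 CPM per kb. Among regulators and adaptors, the deubiquitinase gene Usp8 averaged 40.8 CPM per kb and Cc2d1a, whose product binds CHMP4 proteins, 5.42. The adaptors of plasma membrane repair, Pdcd6ip and Pdcd6, averaged 31.1 and 25.6 CPM per kb. With the longest transcript as the length Pdcd6 stood above Usp8, at 51.9 against 41.2 CPM per kb.

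**Figure D3:**
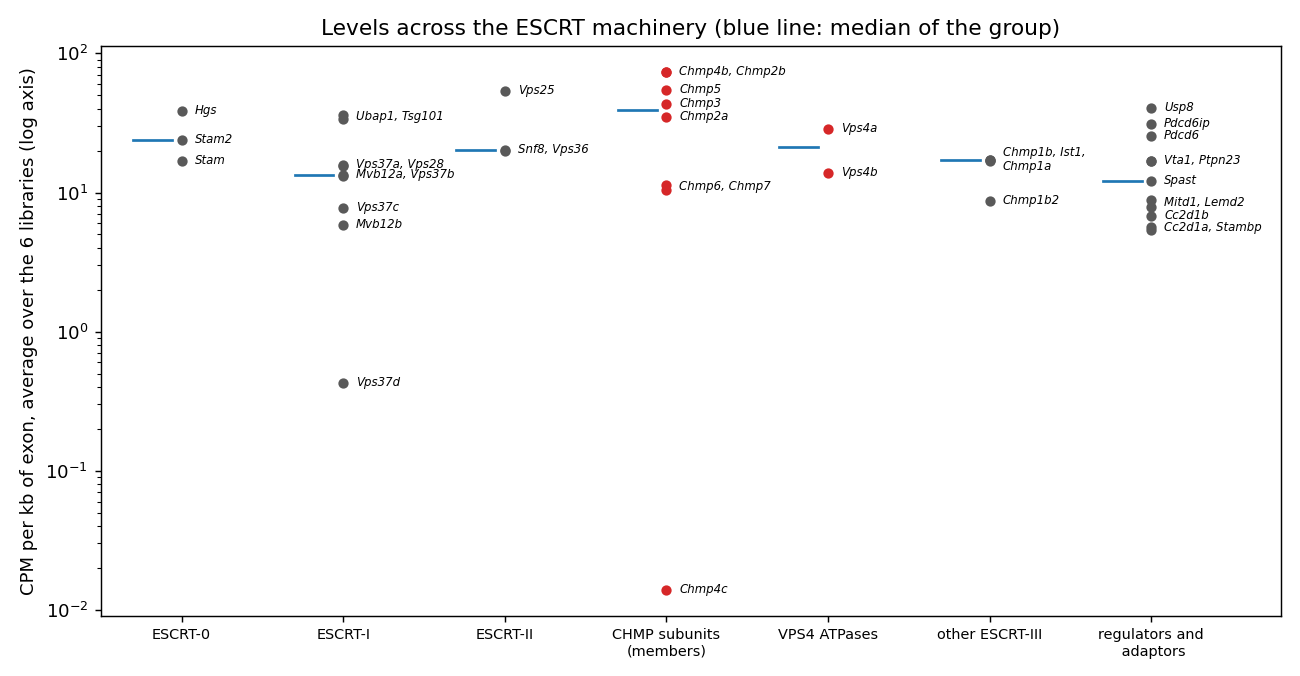
Average CPM per kb of exon over the 6 libraries (log axis) of the 10 genes examined (8 CHMP and 2 VPS4 genes, red) and of 30 other ESCRT genes (grey) by complex, with the median of each group as a blue line. All genes but 2 lie between 5.42 and 73.7 CPM per kb, and Vps37d at 0.424 and Chmp4c at 0.0139 stand apart.

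Start regions of the 7 genes with a matched promoter held more CpG dinucleotides than the median mouse promoter. RefSeq promoters of GRCm38.p6, each 300 bases long with 250 before and 50 after the start, were matched for 7 of the 10 genes by gene identifier, with 8 promoters in all because Chmp3 has 2. Chmp4c, Chmp6 and Chmp7 were not matched. The 8 promoters held 14 to 32 CpG, with a median of 21.5, and the median of 32851 mouse promoters was 7. Those 32851 promoters were not limited to genes expressed in these cells. Of all promoters, 63.7% held fewer CpG than the lowest of the 8 and 90.5% fewer than the highest. The motif TATAAA was found in 0 of the 8 (either strand), against 13.6% of all promoters. CACGTG was likewise found in 0 of 8, against 7.15% of all. TGACNNNGC, the core of the antioxidant response element, was found in those of Vps4b and Chmp5, and in 12.4% of all promoters. These are matches of letters and not sites shown to be bound. The region of Chmp2b, which with Chmp4b had the highest levels per kb of exon, is printed as an example, chr16:65562763-65563012 on the minus strand of GRCm38.p6, the 250 bases before the start, with its 17 CpG in capitals.
Chmp2b: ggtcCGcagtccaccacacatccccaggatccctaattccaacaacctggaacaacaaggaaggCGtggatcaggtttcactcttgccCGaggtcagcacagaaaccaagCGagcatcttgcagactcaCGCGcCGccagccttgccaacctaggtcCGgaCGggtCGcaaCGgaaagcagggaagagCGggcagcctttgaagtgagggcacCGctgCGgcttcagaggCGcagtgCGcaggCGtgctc
Of the 17 CpG, 13 lie in the 125 bases nearer the start, the right part of the line.

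The identity of the cells was checked with marker genes. All 7 melanocyte and melanoma markers were high, from 108.5 CPM for Sox10 to 7052 CPM for Dct, which encodes a melanin enzyme. The 11 markers of keratinocytes, fibroblasts, leukocytes and endothelium ranged from no reads for Krt5 to 5.47 CPM for Cd68. The part of other cells in the ESCRT levels was not tested.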

How the data were processed

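B16F10 RNA was sequenced in 6 libraries (3 OLO, 3 OZO; 2 groups by GEO title). Per the methods and the labels, the authors aligned 150-base paired reads to mm10 with HISAT2 (2.1.0), counted them with featureCounts (2.1.1) and applied limma-voom (3.58.1); gene filters and the strand setting are not given in the sources used here. The deposited table holds 27179 genes in rows. The only column used is the deposited mean log2 CPM over all libraries. The other 5 value columns (log2 fold change, moderated statistic, p-value, adjusted p-value and log odds) are the authors' comparison of OZO with OLO and were not used, so the planned test between groups was not run.

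A gene without reads has the lowest mean, shared by 6025 genes, which gave a geometric mean of 19641945 reads per scaled library. The depth of each library is unknown. CPM was taken as 2 to the power of the mean and therefore includes the 0.5 read of voom. Lengths and positions come from GENCODE M21 on GRCm38, in which 23882 of 24126 Ensembl identifiers were found. These gene models may differ from those counted. Alternatives were 2 other lengths, no length, removal of the 0.5 read, and 2 other backgrounds. The computation of the library size and of the product of (2 × reads + 1) was run on simulated counts. Those means were made with the same formula, so this checks the arithmetic only. All members, and the highest and lowest gene of each complex, were named by rule; members and lists were chosen with earlier results of these data known. Python 3.11.15, numpy 2.4.6, pandas 2.3.3 and Biopython 1.88 were used.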

Additional observations from a re-analysis of the deposited data

How the results depend on the processing

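Removal of the 0.5 read moved no level of the 10 genes beyond counting error, and Chmp4c went from 0.14 to 0.115 CPM. Both are geometric means, which run low where libraries are as unequal as for Chmp4c. The order of the 10 genes per kb of exon was kept in 44 of 45 pairs with the longest transcript, in 43 with the principal transcript (a choice made after the values had been seen) and in 38 with no length. The median place of the 10 genes, above 92.2% of genes with reads, was 93.7% against all 23882 genes of the table with a known length and 87.0% against genes of at least 1 CPM. The median of the other ESCRT genes was 17.8 CPM per kb with the longest transcript and 23.0 with the principal transcript, in place of 16.8. No paired analysis was possible because the value analysed is a mean over all libraries. For the same reason the comparison of OZO with OLO, another normalization, count filter or pseudocount, and leaving out each library were not run. Depth limits Chmp4c most, with at least 21 reads in all.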
